A study of Mus musculus with 12 samples.

Results

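The 9 genes described here, Clec4a1, Clec4a2, Clec4a3, Clec4b1, Clec4d, Clec4e, Clec4n, Clec7a and Clec12a, encode C-type lectin receptors of myeloid cells. They were taken from the value table by gene symbol, and each of the 9 was measured by 1 probe set, among 19938 genes in all. Expression was profiled on 12 arrays of cells sorted from the skin of untreated, wild-type C57BL/6 mice kept free of specific pathogens, with 3 arrays for each of 4 groups. Melanophages and macrophages were each sorted into a group without surface MHC-II (MHC-II-negative) and a group with it (MHC-II-positive). Melanophages are here macrophages that have taken up melanin, and they were gated on a high side scatter. For the macrophages the labels disagree, since side scatter is high in the titles and low in the phenotype entries. All 4 groups shared a gate that required CD11b and CD64 and left out cells with CD24, CCR2 or Ly6C. The labels give neither the age of the mice nor say that replicates were taken from different animals, so the p-values below describe the spread between arrays, which may be technical.

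C-type lectin receptors are membrane proteins that bind carbohydrates or lipids of microbes and of damaged cells. Activating members signal through the kinase Syk and the CARD9, BCL10 and MALT1 complex to NF-kB. Clec7a (Dectin-1) does so with a motif in its own tail and binds beta-glucans of fungal walls. Clec4n (Dectin-2), Clec4e (Mincle), Clec4d (MCL) and Clec4b1 (DCAR) depend on the adaptor FcR gamma, which Fcer1g encodes. Clec4a2 (DCIR) and Clec12a (MICL) carry inhibitory motifs that recruit phosphatases, and Clec4a1 and Clec4a3 are relatives of Clec4a2. In the RefSeq gene table the members lie in 2 stretches of chromosome 6. The first holds 9 protein-coding genes in the order Clec4a1, Clec4a3, Clec4a4, Clec4b1, Clec4a2, Clec4b2, Clec4n, Clec4d and Clec4e, of which 7 are members. The second, after 101 other protein-coding genes, runs from Clec12a through Clec12b, Clec1b, Clec9a and Clec1a to Clec7a and Olr1.

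Values are log2 expression, so a difference of 1 is 2-fold. Array medians lay between 2.97 and 3.08, and values near them are dim, so that a difference measured from there can be understated. Mean correlations of an array with its group mates were 0.972 to 0.988, and the arrays farthest from theirs were replicate 1 of the MHC-II-negative and replicate 3 of the MHC-II-positive macrophages. All 14 measured genes of the core macrophage list had group means at least 1 above the median of the array medians. The MHC-II genes separated the gates, with H2-Eb1 differing by 3.99 ± 0.18 (SE), while Ccr2, whose protein was absent by the gate, differed by 3.23 ± 0.20 in the same direction.

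Promoter windows are shown for the 5 members called in the tests below (adjusted p under 0.05), 4 with MHC-II class and Clec4d with cell kind. They are RefSeq sequences of build GRCm38.p6, from 250 bases before to 50 after the gene start, written 5′ to 3′ on the gene's own strand. Capitals mark matches on either strand. The letters searched were GAGGAA, the core bound by PU.1, a transcription factor of the myeloid lineage. For C/EBP they were TTGCNNAA, where N is any base, and for IRF factors GAAANNGAA. For AP-1 they were TGA and TCA with any 1 base between them. The TATA box was sought as TATAAA and the E-box as CACGTG. The NF-kB motif was searched too.
Clec7a, chr6:129472730-129473029, minus strand: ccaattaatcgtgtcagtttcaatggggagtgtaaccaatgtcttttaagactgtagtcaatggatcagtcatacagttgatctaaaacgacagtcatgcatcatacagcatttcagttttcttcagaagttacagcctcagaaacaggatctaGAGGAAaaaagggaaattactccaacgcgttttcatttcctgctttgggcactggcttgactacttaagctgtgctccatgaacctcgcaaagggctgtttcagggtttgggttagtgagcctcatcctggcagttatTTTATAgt
Clec4e, chr6:123289822-123290121, minus strand: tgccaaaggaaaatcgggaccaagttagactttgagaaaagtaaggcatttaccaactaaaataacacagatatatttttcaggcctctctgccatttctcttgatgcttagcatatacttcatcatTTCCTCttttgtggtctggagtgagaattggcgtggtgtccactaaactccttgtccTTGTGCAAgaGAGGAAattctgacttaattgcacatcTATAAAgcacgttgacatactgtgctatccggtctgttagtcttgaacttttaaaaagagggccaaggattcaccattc
Clec4b1, chr6:123049712-123050011, plus strand: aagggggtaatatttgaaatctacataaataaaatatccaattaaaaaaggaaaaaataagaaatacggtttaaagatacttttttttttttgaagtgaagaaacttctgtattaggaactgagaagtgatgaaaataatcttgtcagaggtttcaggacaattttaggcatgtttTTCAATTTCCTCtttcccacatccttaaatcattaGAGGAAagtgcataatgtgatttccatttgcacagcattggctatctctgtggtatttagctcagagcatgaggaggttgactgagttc
Clec12a, chr6:129349994-129350293, plus strand: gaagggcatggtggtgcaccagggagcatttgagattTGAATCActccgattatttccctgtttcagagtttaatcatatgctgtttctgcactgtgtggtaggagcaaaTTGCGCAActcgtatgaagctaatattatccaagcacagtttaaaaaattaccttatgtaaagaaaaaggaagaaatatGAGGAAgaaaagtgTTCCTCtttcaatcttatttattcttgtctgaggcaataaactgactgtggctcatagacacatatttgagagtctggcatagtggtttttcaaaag
Clec4d, chr6:123261857-123262156, plus strand: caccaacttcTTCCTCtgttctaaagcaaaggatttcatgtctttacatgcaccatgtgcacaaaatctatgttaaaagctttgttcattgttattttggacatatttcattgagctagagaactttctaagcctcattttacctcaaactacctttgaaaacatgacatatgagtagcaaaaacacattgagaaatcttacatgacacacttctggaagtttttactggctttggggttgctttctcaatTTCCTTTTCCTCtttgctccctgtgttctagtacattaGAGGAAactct
Of the 9 members, 8 had a window, and where a gene had 2 the one listed first was used. The PU.1 core was found in all 5 windows printed here and in 6 of the 8 members' windows, against 28.3% of 32851 promoter windows of the same length. The C/EBP letters occurred in the windows of Clec4e and Clec12a (10.8% of all windows), those of AP-1 in Clec12a and Clec4a2 (7.81%), and those of IRF in Clec4b1 and Clec4d (8.56%). In both of the latter the IRF match overlapped a PU.1 core. A TATA match lay at -29 to -24 in Clec4e. Others lay at -161 to -156 in Clec4a2 and, on the opposite strand, at 43 to 48 past the start in Clec7a. Such a match was in 13.6% of all windows. The letters of NF-kB and the E-box were in 0 of the 8 windows (4.51% and 7.15% of all windows). These are matches of letters in a short window and describe no binding.

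Of the 9 receptors, 4 rose in MHC-II-positive cells when both cell kinds were averaged, and 0 fell. Clec7a was 4.60-fold higher, Clec4b1 3.98-fold, Clec4e 3.82-fold and Clec12a 2.29-fold. All 9 log2 differences lay above 0, with a median of 0.49 against -0.02 over all genes. Of all genes, 0.632% were called higher in this comparison (adjusted p under 0.05, limma with Benjamini-Hochberg adjustment over 19938 genes). The arrays of MHC-II-positive cells lay above those of MHC-II-negative cells, without overlap in either cell kind, for 6 of the 9 members, namely these 4, Clec4d and Clec4a2, against 1.11% of all genes. Some margins were narrow. For Clec4a2 the nearest arrays read 9.62 against 9.61 in melanophages and 9.31 against 9.27 in macrophages. For Clec12a in macrophages they read 7.34 against 7.31. In such sorted bulk samples, more cells of an expressing type and more RNA per cell cannot be told apart.

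**Figure D1:**
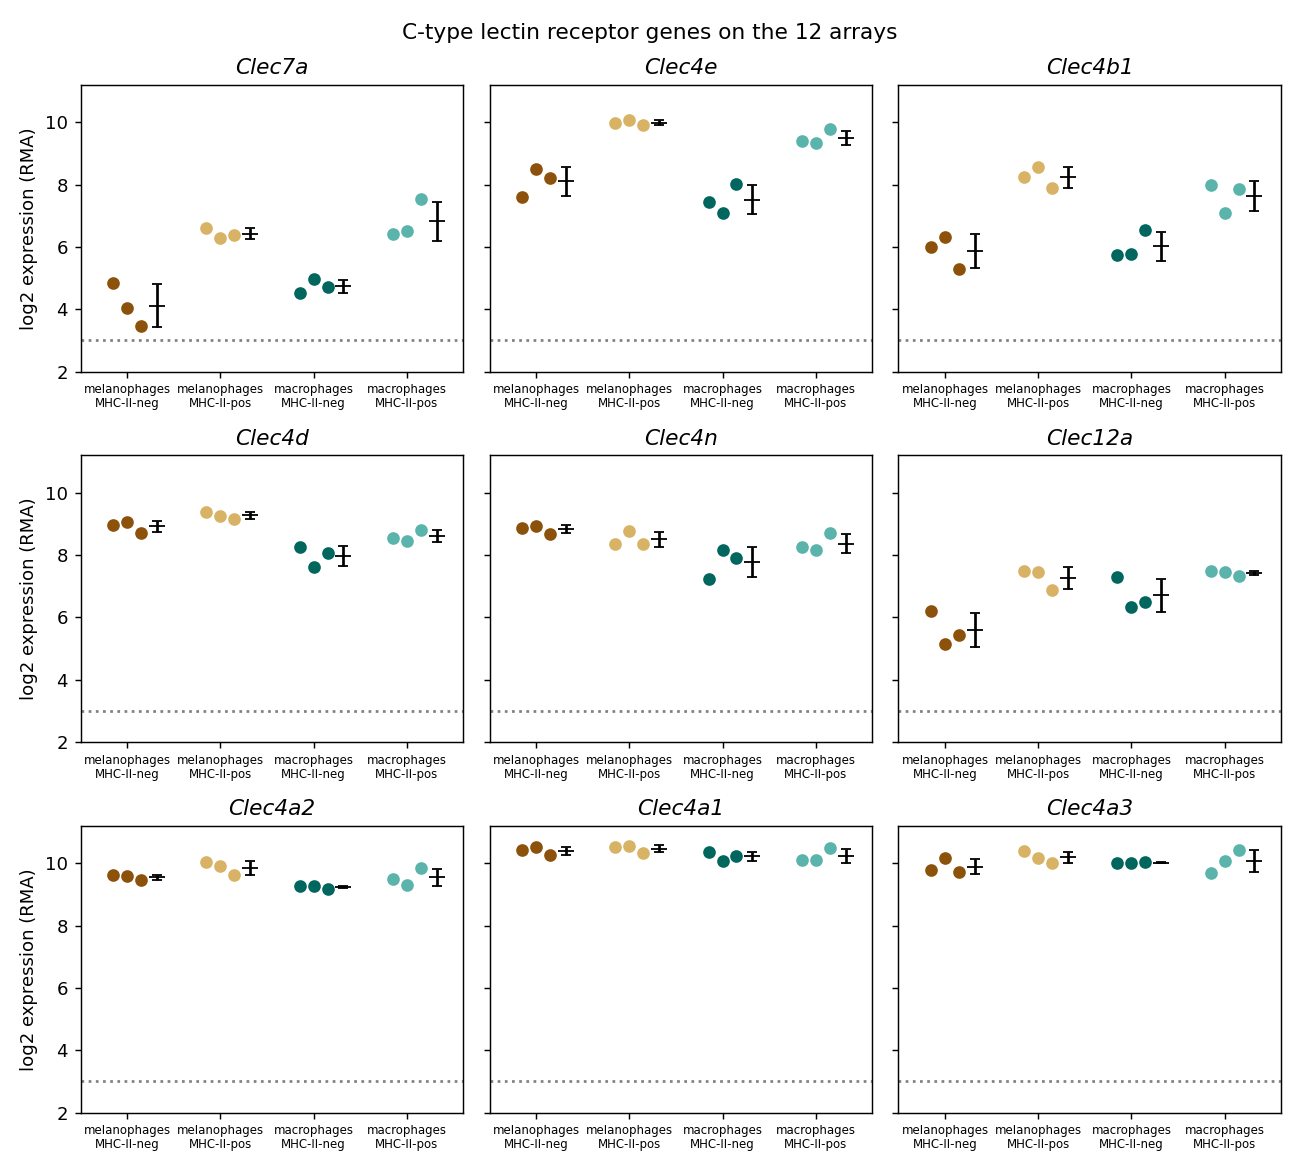
Log2 expression (vertical axes) of the 9 receptor genes in the 4 groups (horizontal axes), with a point for each array, the group mean ± SD (n = 3) in black and the median of the array medians as a dotted line. Clec7a, Clec4e and Clec4b1 are higher in both MHC-II-positive groups, Clec4d is higher in melanophages within each MHC-II class, and Clec4a1 and Clec4a3 stay between 9.70 and 10.57 on all arrays.

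Clec7a, the beta-glucan receptor, read 4.85, 4.04 and 3.46 on the arrays of MHC-II-negative melanophages and 6.61, 6.28 and 6.40 on those of MHC-II-positive melanophages. In macrophages it read 4.53, 4.97 and 4.71 without and 6.41, 6.52 and 7.55 with MHC-II. The MHC-II-positive arrays were thus the 6 highest, and the cell kinds overlapped within each class. The difference averaged over cell kind was 2.20 ± 0.25 (SE, adjusted p = 0.00212). It was 2.31 ± 0.35 in melanophages (adjusted p = 0.0287) and 2.09 ± 0.35 in macrophages (adjusted p = 0.039). The averaged call held in all 23 alternative fits, with adjusted p between 0.000211 and 0.0114. The mean in MHC-II-negative melanophages was 4.12 ± 0.70 (SD, n = 3), only 1.12 above the median of the array medians.

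Clec4e, the receptor for the mycobacterial cord factor, read 7.61, 8.50 and 8.20 in MHC-II-negative melanophages and 9.98, 10.08 and 9.91 in MHC-II-positive ones. In macrophages the arrays read 7.44, 7.10 and 8.03 without and 9.41, 9.33 and 9.77 with MHC-II. From the top, the order of the groups was MHC-II-positive melanophages, MHC-II-positive macrophages, MHC-II-negative melanophages and MHC-II-negative macrophages, and of these neighbours the last 2 overlapped. The averaged difference with MHC-II class was 1.93 ± 0.18 (adjusted p = 0.000454), the smallest adjusted p of the 9 members, and it was called in all 23 alternative fits (highest adjusted p = 0.00615). The difference was of like size in melanophages (1.89 ± 0.26, adjusted p = 0.0143) and macrophages (1.98 ± 0.26, adjusted p = 0.00672).

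Clec4b1, which pairs with FcR gamma and binds mycobacterial glycolipids, read 5.99, 6.33 and 5.28 in MHC-II-negative and 8.25, 8.57 and 7.88 in MHC-II-positive melanophages. In macrophages it read 5.73, 5.78 and 6.56, and 7.99, 7.08 and 7.86. Its groups fell into a high and a low pair by MHC-II class, and within each pair the cell kinds overlapped. The averaged difference was 1.99 ± 0.24 (adjusted p = 0.00273, and at most 0.0228 in 23 alternative fits). It passed in melanophages (2.37 ± 0.34, adjusted p = 0.0179) and not in macrophages (1.62 ± 0.34, adjusted p = 0.0992), but the difference between these was not called (0.75 ± 0.48, adjusted p = 1). Whether the probes of Clec4b1 and of the related Clec4a and Clec4b genes also bind each other's transcripts was not tested.

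Clec12a, the inhibitory receptor for uric acid crystals, was the fourth. It read 6.21, 5.15 and 5.43 in MHC-II-negative and 7.50, 7.45 and 6.88 in MHC-II-positive melanophages, and 7.31, 6.34 and 6.49 against 7.48, 7.45 and 7.34 in macrophages. MHC-II-negative melanophages were the low group, below all other arrays, while the other groups lay closer together. The averaged difference was 1.19 ± 0.22 (adjusted p = 0.033), and that call was the least steady of the 4. It ended in 9 of the 12 fits that left out 1 array, that is, in all but those without replicate 1 of the MHC-II-negative melanophages, replicate 3 of the MHC-II-positive melanophages or replicate 1 of the MHC-II-negative macrophages (adjusted p from 0.0124 to 0.0966, difference 1.08 to 1.35). It also ended with quantile normalization again (adjusted p = 0.0568), cyclic loess (0.0509) and every probe set of the table (0.0655). Within melanophages the difference was 1.68 ± 0.30 (adjusted p = 0.0831) and within macrophages 0.71 ± 0.30 (adjusted p = 0.602).

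**Figure D2:**
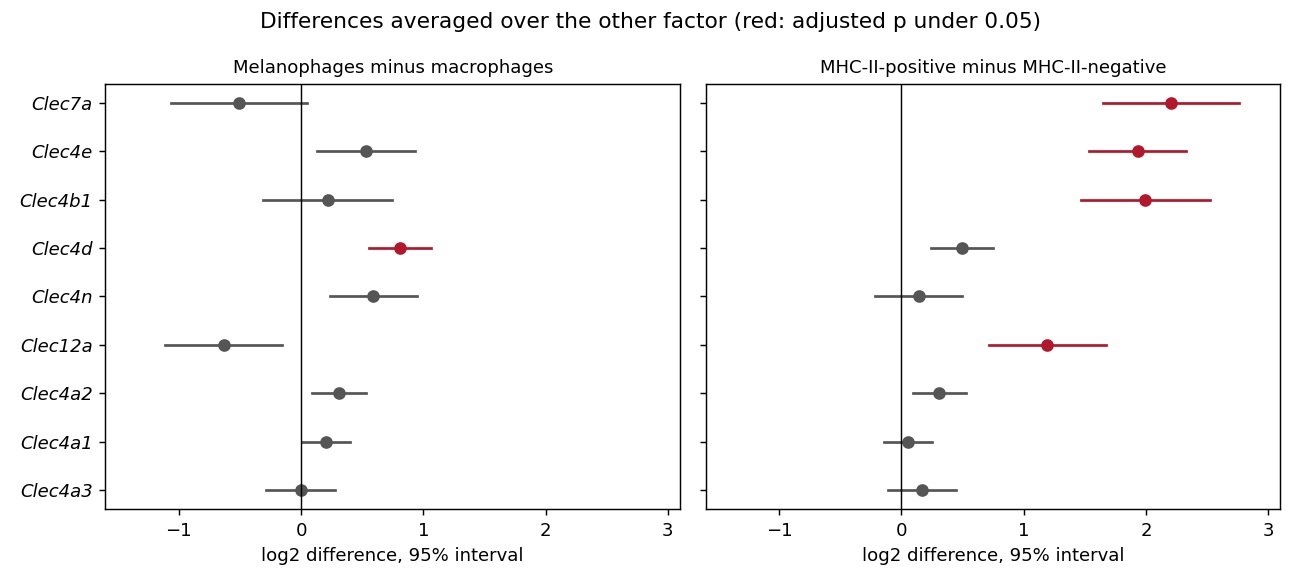
Log2 differences (horizontal axes) of the 9 genes between melanophages and macrophages (left) and between MHC-II-positive and MHC-II-negative cells (right), each averaged over the other factor, as points with 95% intervals of the limma fit. Red marks an adjusted p under 0.05, which Clec4d reached on the left (0.81) and Clec7a, Clec4e, Clec4b1 and Clec12a on the right (1.19 to 2.20).

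Within melanophages 3 of the 9 members were called higher with MHC-II (Clec4b1, Clec4e and Clec7a), where 0.201% of all genes were. Within macrophages 2 were (Clec4e and Clec7a), where 0.311% of all genes were. Several of these calls ended in limma fits that left out 1 array, in part with the difference unchanged. Without replicate 1 of the MHC-II-positive melanophages, Clec4e in melanophages stayed at 1.89 (adjusted p = 0.0536). Without replicate 2 of the MHC-II-positive melanophages, Clec7a in macrophages stayed at 2.09 (adjusted p = 0.0755). In melanophages 0 members were called without replicate 3 of the MHC-II-negative group or without replicate 1 or 2 of the MHC-II-positive group, and 1 was without replicate 3 of the latter. In macrophages Clec4e was called in all 12 leave-one-out fits (adjusted p at most 0.0338), whereas Clec7a was called in only those without replicate 1 or 3 of the MHC-II-negative melanophages (highest adjusted p = 0.135). With both arrays that stand farthest from their group mates left out, 0 members were called within macrophages. No gene in the table was called for a difference of the MHC-II effect between the cell kinds (the interaction, 0%, smallest adjusted p = 0.965). For 2 members, Clec4n and Clec12a, the unadjusted p in limma was under 0.05, and that of Clec12a (0.0472) ranked 771 of 19938 genes. None of the members was thus shown to respond differently in the 2 cell kinds.

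**Figure D3:**
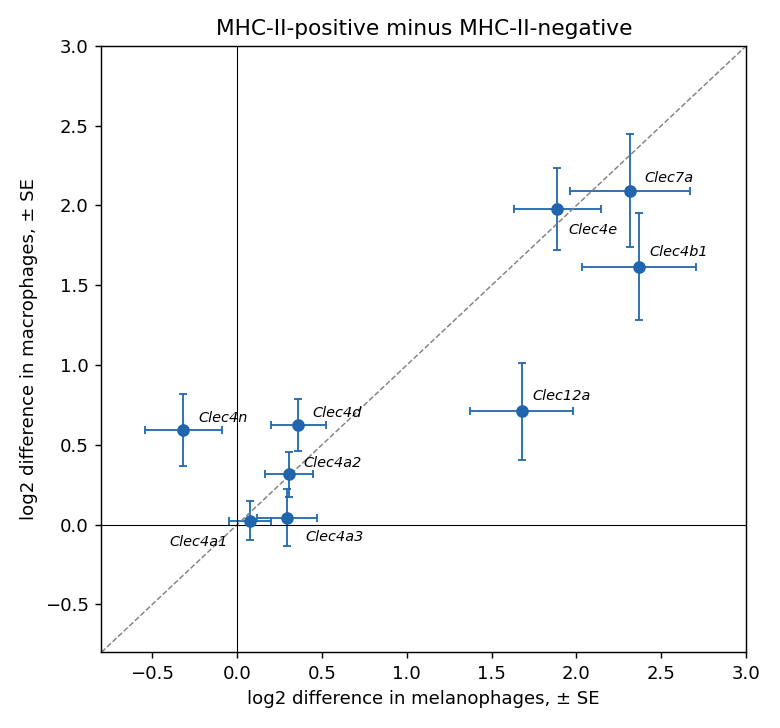
Log2 difference between MHC-II-positive and MHC-II-negative cells in melanophages (horizontal axis) and in macrophages (vertical axis) for the 9 genes, with standard errors and the line of equal differences dashed. Clec7a (2.31 and 2.09) and Clec4e (1.89 and 1.98) lie near the line, Clec12a (1.68 and 0.71) below it and Clec4n (-0.32 and 0.60) above it.

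Clec4d, which forms a complex with Mincle and FcR gamma, was the 1 member called between the cell kinds. In that comparison, averaged over MHC-II class, 6 of the 9 members had an unadjusted p under 0.05 in limma. The largest of these p-values, 0.0412 for Clec4a1, ranked 1263 among the 19938 genes. Clec4d read 8.96, 9.07 and 8.72 in MHC-II-negative and 9.40, 9.27 and 9.17 in MHC-II-positive melanophages. In macrophages it read 8.26, 7.62 and 8.06, and 8.56, 8.44 and 8.81. Melanophage arrays lay above macrophage arrays within each MHC-II class, although MHC-II-negative melanophages overlapped MHC-II-positive macrophages. Averaged over MHC-II class, Clec4d was 1.75-fold higher in melanophages (0.81 ± 0.12, adjusted p = 0.0404), where 0.0552% of all genes were called higher. Clec4d was also the only member whose arrays did not overlap, higher in melanophages in both classes, as 0.707% of all genes were. The call ended in 10 of the 12 leave-one-out fits, in all but those without replicate 1 of the MHC-II-negative or replicate 3 of the MHC-II-positive macrophages, with adjusted p from 0.036 to 0.106 and a difference of 0.72 to 0.88. It also ended in the fit of every probe set (adjusted p = 0.0807). With MHC-II class the difference of Clec4d was 0.49 ± 0.12 (adjusted p = 0.112).

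Within a single MHC-II class 0 of the 9 members were called between the cell kinds, in MHC-II-negative cells (0.00502% of all genes) or in MHC-II-positive cells (0.015%), and 5 and 1 members had an unadjusted p under 0.05 in limma. The largest such differences of members lay in MHC-II-negative cells. Clec4n, the alpha-mannan receptor, read 8.87, 8.93 and 8.68 in MHC-II-negative melanophages against 7.25, 8.16 and 7.92 in MHC-II-negative macrophages, a difference of 1.05 ± 0.23 (adjusted p = 0.325) with no overlap of the arrays. In MHC-II-positive cells it read 8.37, 8.78 and 8.37 in melanophages and 8.26, 8.16 and 8.70 in macrophages, which overlapped (0.14 ± 0.23, adjusted p = 0.971). Clec12a lay the other way in MHC-II-negative cells, at -1.11 ± 0.30 (adjusted p = 0.563), and differed by -0.15 ± 0.30 in MHC-II-positive cells (adjusted p = 0.976). The genes of the sort markers differed between the cell kinds too. Averaged over class, all 7 measured had melanophage minus macrophage differences below 0, 6 with an unadjusted p under 0.05 in limma and 0 called (median -0.65), and in MHC-II-negative cells the median was -0.77. Their summed linear level was 496 to 904 in MHC-II-negative melanophages and 1206 to 1637 in MHC-II-negative macrophages, and its part in the differences of Clec4n and Clec12a was not tested. Neither of these interactions passed, with -0.91 ± 0.32 for Clec4n and 0.97 ± 0.43 for Clec12a (adjusted p = 1 for both). Averaged over class, the differences of the receptors other than Clec4d were 0.59 ± 0.16 for Clec4n (adjusted p = 0.327), 0.53 ± 0.18 for Clec4e (0.49), 0.22 ± 0.24 for Clec4b1 (0.885), -0.51 ± 0.25 for Clec7a (0.707) and -0.63 ± 0.22 for Clec12a (0.491). They were 0.21 ± 0.09 for Clec4a1 (0.649), 0.31 ± 0.10 for Clec4a2 (0.448) and -0.004 ± 0.13 for Clec4a3 (0.998). The members thus lay on both sides of 0 between the cell kinds, 6 above and 3 below, with a median of 0.22 against 0.01 over all genes. Clec4a3, counted below, lay near 0.

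The 3 receptors of the DCIR type varied little. Clec4a1 had group means between 10.22 ± 0.13 and 10.47 ± 0.12, and every neighbouring pair of groups in its order overlapped. Clec4a3 had group means between 9.89 ± 0.25 and 10.19 ± 0.18 and overlapped in the same way. Neither was called in any comparison. Their 95% intervals for MHC-II class were -0.14 to 0.25 for Clec4a1 and -0.11 to 0.45 for Clec4a3. Against the spread between arrays, which may be technical, these intervals leave out a change of 1 in either direction. Clec4a2, the inhibitory DCIR, was lowest in MHC-II-negative macrophages (9.27, 9.26 and 9.19) and highest in MHC-II-positive melanophages (10.05, 9.90 and 9.62). MHC-II-negative melanophages (9.61, 9.60 and 9.45) and MHC-II-positive macrophages (9.51, 9.31 and 9.85) overlapped between them. Its differences were 0.31 ± 0.10 with MHC-II class (adjusted p = 0.313) and 0.31 ± 0.10 with cell kind (adjusted p = 0.448).

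Neighbours in the genome did not share 1 pattern. In the first stretch Clec4b1 and Clec4e differed with MHC-II class by 1.99 and 1.93, while the genes between them, Clec4a2, Clec4n and Clec4d, differed by 0.31, 0.14 and 0.49. Clec4a4 and Clec4b2, which are not members, had group means of 2.36 to 2.84, at or below the array medians. In the second stretch Clec12b, Clec1b, Clec9a and Clec1a were as dim (2.25 to 2.91), and Olr1, the receptor for oxidised low-density lipoprotein beside Clec7a, rose by 2.63 ± 0.24 (adjusted p = 0.000372). Olr1 was the only called gene of the 9 neighbouring lectin genes of that list, whose median was -0.01.

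**Figure D4:**
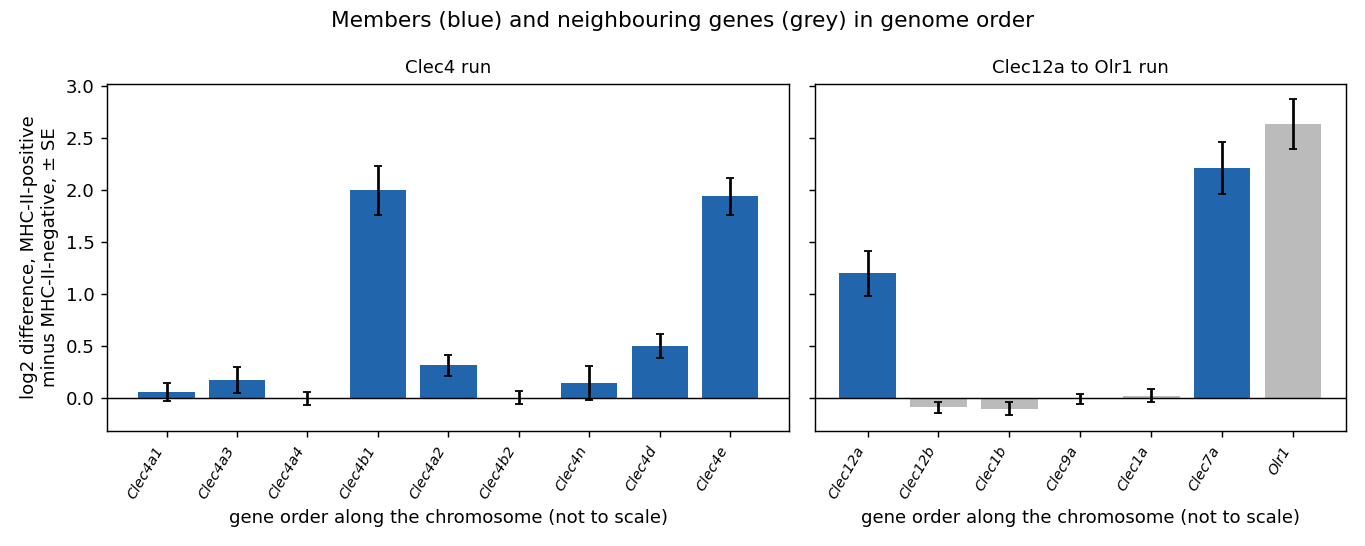
Log2 difference between MHC-II-positive and MHC-II-negative cells, as the average of both cell kinds (vertical axis, bars with SE), for the genes of both stretches in their order on the chromosome (horizontal axis, not to scale). Members are blue and other genes grey, and the bars above 1 are those of Clec4b1, Clec4e, Clec12a, Clec7a and Olr1.

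Among 17 C-type lectin receptors encoded elsewhere, 3 rose with MHC-II and 1 fell (median -0.06). Cd209e, a relative of DC-SIGN, rose by 1.23 ± 0.14 (adjusted p = 0.00238), the galactose-binding Mgl2 by 1.33 ± 0.26 (adjusted p = 0.0466) and the langerin gene Cd207 by 1.20 ± 0.15 (adjusted p = 0.00356). Cd207 differed by 2.04 ± 0.21 in macrophages (adjusted p = 0.00226) and by 0.36 ± 0.21 in melanophages (adjusted p = 0.939), where its MHC-II-positive mean of 3.17 was near the array medians. In the same list the scavenger receptor Colec12 fell by 1.36 on the log2 scale. Of the 19 measured genes of the signalling path below the activating receptors, 1 rose with MHC-II class and 0 fell, with 3 at an unadjusted p under 0.05 (median 0.07 against -0.02 over all genes). That gene was Malt1, the protease of the CARD9 complex, which rose 3.13-fold (1.65 ± 0.15, adjusted p = 0.000362), by 1.53 ± 0.21 in melanophages and 1.76 ± 0.21 in macrophages. Chosen after their values were seen, the other core parts differed by -0.04 ± 0.07 (Fcer1g), 0.35 ± 0.18 (Syk), -0.08 ± 0.08 (Card9) and 0.31 ± 0.14 (Bcl10), with adjusted p of at least 0.548. The other genes of the list at an unadjusted p under 0.05 were the Src-family kinase gene Fgr (0.28 ± 0.07, adjusted p = 0.105) and Traf6 (0.52 ± 0.19, adjusted p = 0.407). Card9 lay at 3.01 to 3.13 in the group means, at the array medians. Among 12 phosphatases and other brakes 0 passed (2 with unadjusted p under 0.05), with the smallest adjusted p for Tnfaip3 (0.72 ± 0.23, adjusted p = 0.319). Among 15 transcription factors 0 passed (3 with unadjusted p under 0.05), with the smallest for Rel (0.62 ± 0.23, adjusted p = 0.398).

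Of the 17 products that these receptors are known to induce, 4 rose with MHC-II and 0 fell (median 0.10). They were the prostaglandin synthase gene Ptgs2 (2.69 ± 0.20), Il1b (1.56 ± 0.11), Il10 (1.08 ± 0.20) and the inflammasome gene Nlrp3 (1.06 ± 0.13). Among 12 Toll-like, Fc and integrin receptors that act beside the lectins, 0 passed (7 with unadjusted p under 0.05), with the smallest adjusted p for Cd14 (0.50 ± 0.10, adjusted p = 0.0618). Between the cell kinds 0 genes of these signalling, brake, transcription factor, product and partner receptor lists were called, with 0, 1, 2, 0 and 4 genes at an unadjusted p under 0.05. In other lists some were called lower in melanophages, Cd207 (-1.16 ± 0.15, adjusted p = 0.0262) among the lectins encoded elsewhere and the fractalkine receptor gene Cx3cr1 (-1.54 ± 0.23, adjusted p = 0.0433) in the core macrophage list.

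The genes whose values over the 12 arrays were most like each called member were sought among 9558 genes above the median level, leaving out predicted and clone-named genes. The measure was Pearson's correlation over arrays that share groups and normalization, so it is a description. Clec4e was most like Il1b (0.963), Klrd1 (0.93) and Tnip3 (0.926). Clec7a was most like Ahr (0.959), Flrt3 (0.956) and Mcemp1 (0.954). For Clec4b1 the list was Tnip3 (0.948), Olr1 (0.939) and Samd8 (0.932), and for Clec12a it was Ctsh (0.953), Cd52 (0.953) and Cyp4f18 (0.925). Clec4d was most like Lgals3 (0.905), Cyba (0.889) and Aoah (0.884). Tnip3, which encodes a binding partner of the NF-kB inhibitor A20, was thus near both Clec4e and Clec4b1, and it rose with MHC-II by 2.48 ± 0.18. With the group means taken off, the correlation of Tnip3 was 0.608 with Clec4b1 but 0.046 with Clec4e. For Clec4e it was then 0.753 with Il1b and -0.012 with Klrd1.

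Markers of other cell types were read beside these results. Of 15 dendritic cell genes 3 rose with MHC-II class, Itgax, Ccr7 and Cd207, and the summed linear level of the list was 260 to 378 in MHC-II-negative and 309 to 562 in MHC-II-positive melanophages, and 272 to 394 and 511 to 808 in the corresponding macrophages. Of this list, Xcr1 and Clec9a were below the array medians in all groups (2.25 to 2.67), and Flt3 and Zbtb46 lay between 3.18 and 3.64. Whether dendritic cells were present was not tested. Cd209a of the same list was well above the array medians, with group means of 7.32 to 8.05, and is part of these sums. It was called in neither averaged comparison (0.45 ± 0.26 with MHC-II class and -0.28 ± 0.26 between the cell kinds). Of 7 measured monocyte genes 1 rose, Ccr2, and their sum was 555 to 821 and 609 to 700 in melanophages, and 744 to 1153 and 943 to 1014 in macrophages, without and with MHC-II. Between the cell kinds 2 dendritic cell genes were called lower in melanophages, Cd207 and Itgax (-0.80 ± 0.12, adjusted p = 0.0404), and 12 of the 15 differences lay below 0 (median -0.05). Of the 7 monocyte genes 0 were called between the cell kinds, 4 had an unadjusted p under 0.05 and 6 differences lay below 0 (median -0.31). The part of these markers in the MHC-II differences and in the difference of Clec4d, which lay the other way, was not tested. Of 12 neutrophil genes 0 were called in either averaged comparison, while 4 had an unadjusted p under 0.05 in limma between the cell kinds and 2 with MHC-II class. Their sum was 128 to 192 and 175 to 240 in melanophages and 116 to 134 and 123 to 163 in macrophages, and S100a8 differed between the cell kinds by 1.19 ± 0.32 (adjusted p = 0.321) while Ly6g was at or below 2.32 in all groups. The part of the neutrophil genes in the difference of Clec4d was not tested. Of the melanocyte, keratinocyte, fibroblast, T cell and mast cell lists, with 10, 9, 7, 5 and 7 measured genes, 0 genes were called in either averaged comparison (with at most 2 genes of a list at an unadjusted p under 0.05).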

How the data were processed

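Total RNA of sorted cells was amplified, labelled with biotin and hybridised to arrays, per the labels' protocols. The deposited log2 values were made by the authors with RMA (oligo), per the submitters' processing notes, with versions, settings and genome build not given in the sources used here. RMA scales all arrays to like distributions, so a shift of all genes would not be seen, and the number of arrays limits the precision. Of 35556 probe sets, 21789 have 1 symbol in the platform annotation, 1621 several and 12146 none here, and each gene was represented by its brightest probe set on average. The 12 arrays were fitted with limma 3.58.1 in R 4.3.3 (lmFit and eBayes, a mean per group, no filter, two-sided, 8 residual degrees of freedom), and 7 comparisons were adjusted over 19938 genes by Benjamini-Hochberg; errors of differences are standard errors. The fit was run on simulated data with independent noise, which cannot speak to technical replicates or to arrays far from their group mates. Of 207 entries in 17 further gene lists, 194 were measured. The rule for named genes takes all members, at most 4 called genes per list or else that with the smallest adjusted p, and the 3 genes most correlated with each called member. The members and lists were chosen with earlier results of these data known. Replicates are numbered in accession order.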

Additional observations from a re-analysis of the deposited data

How the results depend on the processing

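The fits were repeated with 2 filters on dim genes, with a second quantile normalization, cyclic loess or median centring, with every probe set, the mean of a gene's probe sets, trended robust eBayes, array weights, the arrays of the compared groups alone, each array left out and both far macrophage arrays left out. Counts of called members stayed within 1.5 times except as follows. With every probe set 0 were called between the cell kinds and 1 with MHC-II within macrophages. With the compared groups alone 1 was called with MHC-II in melanophages and 0 in macrophages, and without both far arrays 0 in macrophages. With 1 array left out the counts ranged from 0 to 1 between the cell kinds, from 0 to 4 with MHC-II in melanophages and from 1 to 2 in macrophages. Fewer samples or more features tested enter these fits by construction. No called difference changed sign. Uncalled differences near 0 did. Between the cell kinds Clec4a3 turned to 0.0027 with quantile normalization and 0.081 without both far arrays (-0.096 to 0.083 with 1 array left out), and with 1 array left out Clec4b1 in MHC-II-negative cells ranged from -0.39 to 0.14, and in MHC-II-positive cells Clec4a3 from -0.063 to 0.30 and Clec12a from -0.26 to 0.052. With MHC-II class Clec4n turned to -0.074 without both far arrays, and Clec4a1 ranged from -0.014 to 0.086 with 1 array left out. Within macrophages Clec4a1 turned to -0.041 without both far arrays (-0.11 to 0.096), and Clec4a3 to -0.015 with array weights and -0.14 without both far arrays (-0.13 to 0.23). The interaction of Clec4a2 turned to 0.040 with quantile normalization, 0.027 with array weights and 0.12 without both far arrays (-0.13 to 0.14), and that of Clec4e to 0.081 without both far arrays (-0.35 to 0.12); it ranged from -0.019 to 0.18 for Clec4a1 and from -0.11 to 0.59 for Clec7a with 1 array left out. The cause was not tested. The titles carry codes in 3 runs of consecutive numbers that each hold all 4 groups, and a replicate block by these runs was added after the data were seen. The labels do not say what a run shares, and deviations from the group means correlated at -0.25 to 0.27 between arrays of a run (over 0.1 in 5 of 18 pairs, and 0 of 12 arrays correlated best with their own run in all other groups), so the runs were not taken as pairs. With the block 0 members were called between the cell kinds (Clec4d 0.81, adjusted p = 0.0709) and 4, 2 and 1 with MHC-II averaged, in melanophages and in macrophages; limma no longer called Clec4b1 and Clec7a in melanophages (adjusted p = 0.0696 and 0.0927) or Clec7a in macrophages (0.107), and called Clec12a in melanophages (0.0264).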
